A study of Mus musculus with 9 samples.

Results

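Pericytes are the cells wrapped around capillaries, and vascular smooth muscle cells ring the larger vessels. Both are called mural cells. They are held on the vessel by platelet-derived growth factor from the endothelium, which acts on the receptor PDGFRB, and they use the receptor NOTCH3 to keep their identity. A potassium channel that opens when ATP is low, built from KCNJ8 pores and ABCC9 regulators, and the G protein brakes RGS5 and RGS4 set how they respond to vasoactive signals. In the mammary gland mural cells lie on vessels of the fat pad, outside the ducts.

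The levels of 10 genes of pericytes and mural cells (Rgs5, Rgs4, Des, Kcnj8, Abcc9, Pdgfrb, Cspg4, Notch3, Fhl5 and Mcam) were followed through the isolation of mouse mammary epithelial cells. They were chosen by name, with earlier results of these data known, as array rows that carry 1 gene symbol. Each of the 10 had 1 such row, and all 10 were tested among 19938 genes. The cells came from wild-type C3H females of 8 to 9 weeks and were measured on 9 arrays, 3 in each of 3 groups. All groups share the release of cells from mammary fat by collagenase, an enzyme that cuts collagen. Untrypsinized cells had collagenase alone, trypsinized cells were also digested with the protease trypsin, and mock sorted cells had both enzymes and then a mock pass through a fluorescence-activated cell sorter. Arrays of a group are labelled as biological replicates with no animals named, so p-values measure the spread between these samples, which may in part be technical.

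Median intensity was 345 to 408 over the arrays, and within groups the correlation of log2 levels between arrays was 0.993 to 0.997. All 12 luminal and all 10 myoepithelial markers measured lay on every array above 8.20, the level under which 95% of 1027 olfactory receptor genes fell. That level is used here only as a rough mark of dim signal. All 90 values of the mural genes were above it as well, the lowest being 8.24. Levels below are log2 of the deposited intensity plus 1, and levels of different genes are not compared because probes differ in brightness. Changes are differences of group means from limma given with the standard error (SE) of each, from 3 arrays a group. A gene was called where its change was at least 1.5-fold and its adjusted p no more than 0.05.

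Every mural gene was lower at the end of the procedure than at its start. Between untrypsinized and mock sorted cells, 8 of the 10 were called lower, against 3.4% of all genes, and the median log2 change of the 10 was -1.45, against 0.05 over all genes. The fall came in both steps: 3 of 10 were called lower after trypsin (background 0.933%) and 6 of 10 after the sorter pass (background 1.17%). The median log2 change of the 10 genes was -0.46 at the trypsin step and -0.89 at the sorter step, where all genes had medians of 0.04 and 0.00. With no minimum fold, 9 of 10 passed at the trypsin step (background 11.5%), 8 of 10 at the sorter step (4.2%) and 10 of 10 over both (18%). With the fold minimum and an unadjusted limma p the counts were again 3, 6 and 8 (backgrounds 0.953%, 1.27% and 3.43%). None of the 10 was called higher in any comparison, where 0.532%, 0.0251% and 1.08% of all genes were. The comparisons share arrays, so their values stand side by side and are not independent. In bulk RNA, fewer mural cells and less mural RNA per cell cannot be told apart.

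The groups hardly overlapped. All 10 genes were lower on every mock sorted than on every untrypsinized array, as were 23.4% of all genes. For all 10 genes the 3 trypsinized arrays lay below the 3 untrypsinized arrays (19.4% of all genes did so), and for 9 of 10 the mock sorted arrays lay below the trypsinized arrays (14.3% of all genes). Those 9 genes stepped down through the 3 groups with no overlap, a pattern held by 7.78% of all genes. Cspg4 was the exception, since mock sorted replicate 2 read 8.51 and trypsinized replicate 1 read 8.50.

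**Figure D1:**
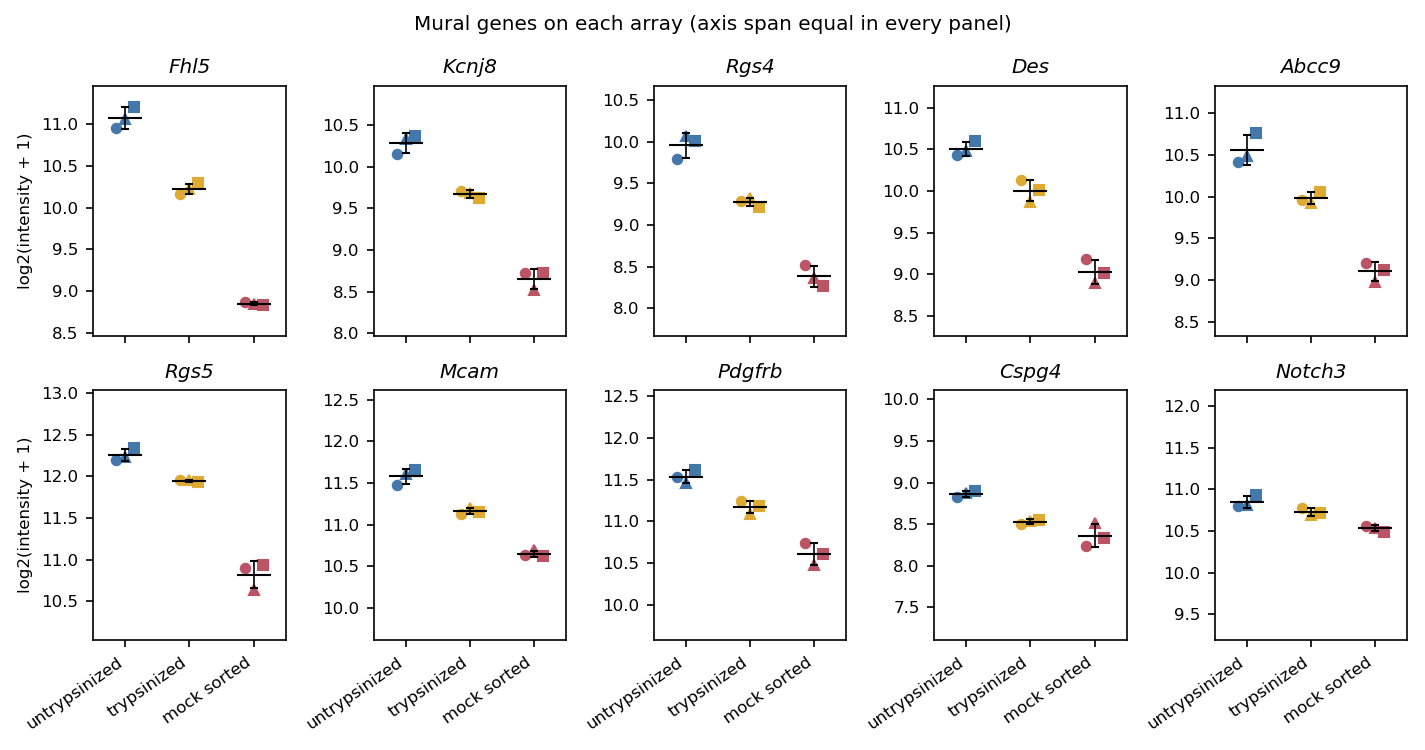
Level of each of the 10 mural genes, as log2(intensity + 1), on every array. Circles, triangles and squares are replicates 1, 2 and 3, bars are the group mean with its SD (n = 3), and each panel spans 3 log2 units. Fhl5 steps down from 11.07 to 10.22 to 8.85 with little scatter, while Notch3 moves from 10.85 to 10.53.

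The regulators of G protein signalling come first. RGS5 and RGS4 speed the shut-off of heterotrimeric G proteins, and Rgs5 is among the most used pericyte markers. Rgs5 (array row 10351455) read 12.20, 12.23 and 12.34 in untrypsinized arrays, 11.95, 11.95 and 11.93 in trypsinized arrays, and 10.90, 10.63 and 10.93 in mock sorted arrays. The first 2 groups lie close together without overlap, and the mock sorted arrays lie well below both. Its log2 change at the trypsin step was -0.31 (SE 0.08, adjusted p = 0.0239), under the minimum fold. At the sorter step Rgs5 fell by 1.12 (SE 0.08, adjusted p = 0.000191), which is 2.18-fold, and over both steps it fell by 1.43 (SE 0.08). Of its whole log2 change, 21.7% came at the trypsin step, the smallest share among the 10 genes.

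Rgs4 (array row 10359908) was called lower at each step. It read 9.79, 10.07 and 10.01 in untrypsinized arrays, 9.29, 9.32 and 9.22 after trypsin, and 8.52, 8.36 and 8.27 after the mock sort. The 3 groups do not overlap, and the gaps at the steps are of similar size. It fell by 0.68 (SE 0.09, adjusted p = 0.00168) at the first step and by 0.90 (SE 0.09, adjusted p = 0.000603) at the second, 2.98-fold in all. Of its change, 43.1% came at the trypsin step. Its mock sorted levels lay near the mark of dim signal, where fold changes are understated.

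Rgs5 and Rgs4 are neighbours on chromosome 1 with 0 protein-coding genes between them. Their promoters, 250 bases before to 50 after the annotated start from RefSeq on the GRCm38.p6 build, are shown because the genes are adjacent. Over the 9 arrays their levels correlated at 0.96, against a median of 0.97 for all 45 pairs of mural genes, so the pair does not stand out. Capitals in the promoters printed here mark TGGGAA, and neither of these holds it.
Rgs5 promoter, chr1:169655251-169655550, plus strand: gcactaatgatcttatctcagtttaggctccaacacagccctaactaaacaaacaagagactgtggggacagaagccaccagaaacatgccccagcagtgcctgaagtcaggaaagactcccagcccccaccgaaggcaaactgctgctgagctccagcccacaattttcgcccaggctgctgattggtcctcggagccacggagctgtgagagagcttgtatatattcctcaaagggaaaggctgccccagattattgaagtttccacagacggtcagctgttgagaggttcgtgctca
Rgs4 promoter, chr1:169747593-169747892, minus strand: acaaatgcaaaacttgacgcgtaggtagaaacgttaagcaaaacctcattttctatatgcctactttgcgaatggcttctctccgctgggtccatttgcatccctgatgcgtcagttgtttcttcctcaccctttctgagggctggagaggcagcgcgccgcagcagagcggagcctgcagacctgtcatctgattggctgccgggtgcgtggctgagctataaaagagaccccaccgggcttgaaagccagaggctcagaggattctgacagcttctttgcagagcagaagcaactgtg

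The other RGS genes of the same subfamily (R4), 8 in number, did not share one direction. From untrypsinized to mock sorted cells 1 of 8 was called lower (background 3.4%) and 1 higher (background 1.08%), with a median log2 change of 0.03. Rgs13, Rgs18 and Rgs21 lay below the mark of dim signal on every array, and Rgs8 did so in each group mean. Changes of these dim genes are understated, and they weigh on the median. Rgs16 fell by 0.67 (SE 0.08) at the trypsin step and by 1.18 (SE 0.08) at the sorter step, and it read 12.07 to 12.29 in untrypsinized and 10.17 to 10.44 in mock sorted arrays. Rgs3 had a log2 change of 0.16 over both steps (adjusted p = 0.0164), which a common median for all arrays brought to 0.01, and Rgs8 had one of 0.23 (adjusted p = 0.0644). Rgs1, which is abundant in lymphocytes, rose by 0.90 (SE 0.23, adjusted p = 0.0231) at the trypsin step. Trypsinized replicate 1 was its highest array at 11.16, and without that array its change was 0.70 (adjusted p = 0.0666). The call was also lost without untrypsinized replicate 2 (adjusted p = 0.0578) or 3 (adjusted p = 0.0637). Over both steps its change was 0.67 (adjusted p = 0.0452), a call that held in 3 of the 9 fits that left out 1 array and was lost, for one, without mock sorted replicate 1 (0.46, adjusted p = 0.111).

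The subunits of the ATP-sensitive potassium channel formed the second pair. KCNJ8 is the pore (Kir6.1) and ABCC9 the sulfonylurea receptor (SUR2) of the vascular form of this channel, which relaxes mural cells when it opens. Kcnj8 (array row 10549102) read 10.15, 10.33 and 10.37 in untrypsinized arrays, 9.71, 9.69 and 9.62 in trypsinized arrays, and 8.73, 8.52 and 8.72 in mock sorted arrays. Each group is clear of the next. Kcnj8 fell by 0.61 (SE 0.07, adjusted p = 0.00147) after trypsin and by 1.02 (SE 0.07, adjusted p = 0.000223) after the sorter pass, 3.09-fold in all. Its trypsin call was near the minimum fold and was lost without untrypsinized replicate 3 (log2 change -0.57) or trypsinized replicate 3 (-0.58).

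Abcc9 (array row 10549108) moved by similar amounts. It read 10.42, 10.49 and 10.76 in untrypsinized arrays, 9.96, 9.93 and 10.06 in trypsinized arrays, and 9.21, 8.98 and 9.12 in mock sorted arrays. The groups are separate, with the widest scatter before trypsin. Its log2 change at the trypsin step was -0.57 (SE 0.09, adjusted p = 0.00487), just under the minimum fold. It was called there without untrypsinized replicate 1 (-0.64), untrypsinized replicate 2 (-0.61) or trypsinized replicate 3 (-0.61). At the sorter step Abcc9 fell by 0.88 (SE 0.09, adjusted p = 0.00108), and over both steps by 1.46 (SE 0.09). Its 95% interval over both steps, -1.67 to -1.24, overlapped that of Kcnj8, -1.80 to -1.45.

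The relatives of these subunits did not fall. Kcnj11 (Kir6.2) and Abcc8 (SUR1) build the channel of pancreatic beta cells and neurons. Abcc8 read 9.89 to 9.99 in untrypsinized arrays and 10.42 to 10.50 in mock sorted arrays, a log2 change of 0.53 (SE 0.04, adjusted p = 3.92e-05) that lies under the minimum fold. Kcnj11 had a log2 change of 0.29 (SE 0.07, adjusted p = 0.0116). Both stayed above 0 with arrays set to a common median (0.38 and 0.14, the latter with an adjusted p of 0.102) and after quantile normalization (0.52 and 0.24). The 95% intervals of the mural and the other subunits lay on opposite sides of 0.

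Kcnj8 and Abcc9 are also direct neighbours, on chromosome 6, with 0 protein-coding genes between them. Their promoters from the same source are also shown because the genes are adjacent, and each holds TGGGAA, the core sequence read by RBPJ, the DNA-binding partner of Notch receptors. In Kcnj8 the match begins at base 1 of the transcript, and in Abcc9 at base -221.
Kcnj8 promoter, chr6:142571565-142571864, minus strand: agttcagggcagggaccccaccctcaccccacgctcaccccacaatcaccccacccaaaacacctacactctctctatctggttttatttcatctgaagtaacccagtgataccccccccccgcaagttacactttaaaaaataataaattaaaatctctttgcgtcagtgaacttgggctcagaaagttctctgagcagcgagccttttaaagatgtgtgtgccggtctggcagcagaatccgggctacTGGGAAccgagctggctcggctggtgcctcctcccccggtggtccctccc
Abcc9 promoter, chr6:142702225-142702524, minus strand: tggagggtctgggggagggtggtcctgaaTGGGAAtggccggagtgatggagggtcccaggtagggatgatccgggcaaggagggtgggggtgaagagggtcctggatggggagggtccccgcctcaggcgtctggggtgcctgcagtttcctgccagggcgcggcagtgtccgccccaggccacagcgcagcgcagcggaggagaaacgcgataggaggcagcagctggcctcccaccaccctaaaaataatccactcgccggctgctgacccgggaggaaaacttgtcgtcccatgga

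Fhl5 moved most. FHL5, a LIM-domain protein, is best known as an activator of CREM and CREB in testis and is also present in vascular smooth muscle. Fhl5 (array row 10511835) read 10.95, 11.06 and 11.21 in untrypsinized arrays, 10.16, 10.22 and 10.29 in trypsinized arrays, and 8.87, 8.84 and 8.83 in mock sorted arrays. The gaps between groups are wide against the scatter within them. It fell by 0.85 (SE 0.06, adjusted p = 0.000263) after trypsin and by 1.38 (SE 0.06, adjusted p = 5.62e-05) after the sorter pass. Over both steps it fell by 2.23 (SE 0.06, adjusted p = 1.34e-06), or 4.68-fold, and ranked 5 from the bottom among 19938 genes. Its 95% interval, -2.38 to -2.08, did not overlap that of any other of the 10 genes.

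Of the other FHL genes, Fhl1, a protein of skeletal and smooth muscle, fell by 0.77 (SE 0.06) at the trypsin step and by 1.29 (SE 0.06) over both. The log2 changes over both steps were 0.30 for Fhl2 (adjusted p = 0.0016) and 0.10 for Fhl3 (adjusted p = 0.0554). Fhl4, which was dim on every array, was at -0.19 (adjusted p = 0.105). Fhl3 was at -0.05 with arrays set to a common median. The RefSeq table holds 2 starts for Fhl5, and the promoter with a TGGGAA match, at base -240, is shown because Fhl5 changed most.
Fhl5 promoter, chr4:25242803-25243102, minus strand: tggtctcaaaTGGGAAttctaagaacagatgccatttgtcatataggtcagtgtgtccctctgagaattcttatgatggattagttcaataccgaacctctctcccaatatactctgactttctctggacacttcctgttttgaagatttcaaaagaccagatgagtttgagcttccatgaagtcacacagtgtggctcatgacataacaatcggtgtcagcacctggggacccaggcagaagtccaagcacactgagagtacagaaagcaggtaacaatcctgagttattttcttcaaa

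The starts of 9 of the 10 genes were in the promoter table, as 10 promoters. TGGGAA, searched on both strands, was in 3 of the 10, and in 25.6% of all 32851 promoters of that length. The CArG box, which serum response factor binds in smooth muscle genes, was in 0 of the 10 and in 1.6% of all, and the forkhead sequence TGTTTAC was in 0 of the 10 and in 3.6% of all. No match overlapped one of another motif. Matches are letters in this window and are given as a description.

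**Figure D2:**
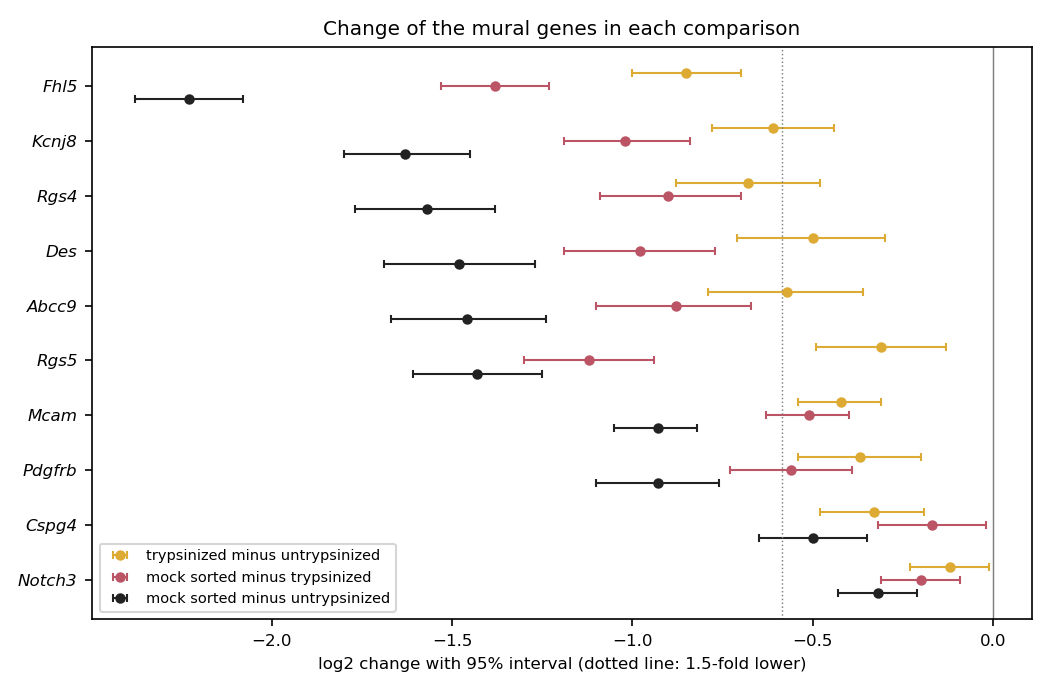
Log2 change of each mural gene in each comparison with its 95% interval from limma (n = 3 arrays per group), ordered by the change over both steps. Points left of the dotted line changed by at least 1.5-fold. The whole change runs from -2.23 for Fhl5 to -0.32 for Notch3.

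Desmin, the product of Des, is the muscle intermediate filament that also marks pericytes. Des (array row 10347583) read 10.43, 10.48 and 10.60 in untrypsinized arrays, 10.13, 9.87 and 10.01 in trypsinized arrays, and 9.18, 8.89 and 9.01 in mock sorted arrays. Its groups do not overlap, and the larger gap is at the sorter step. The trypsin step gave a log2 change of -0.50 (SE 0.09, adjusted p = 0.00662), under the minimum fold. At the sorter step Des fell by 0.98 (SE 0.09, adjusted p = 0.000508), and over both steps 2.79-fold. Skeletal muscle also expresses Des. Of 14 muscle markers 3 were called lower after trypsin (background 0.933%) and 1 after the sorter pass (background 1.17%). The medians were -0.19 and -0.06. Over both steps 5 of 14 were called lower (background 3.4%), with a median of -0.20. Ckm, muscle creatine kinase, was at -2.07 (SE 0.19, adjusted p = 0.000119), with a mock sorted mean of 7.69 that is dim. The summed intensity of the 14 was 7599 to 9720 in untrypsinized, 7345 to 8052 in trypsinized and 7148 to 7508 in mock sorted arrays. The part of muscle RNA in the change of Des was not tested.

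Among the surface receptors, PDGFRB is the receptor through which endothelial PDGF-B recruits pericytes. Pdgfrb (array row 10456046) read 11.53, 11.46 and 11.62 in untrypsinized arrays, 11.24, 11.09 and 11.18 in trypsinized arrays, and 10.74, 10.48 and 10.61 in mock sorted arrays. The steps are small but clear of the scatter. The log2 changes at the steps were -0.37 (SE 0.07, adjusted p = 0.0101) and -0.56 (SE 0.07, adjusted p = 0.00345), both under the minimum fold. The second was past it without trypsinized replicate 2 (-0.60) or mock sorted replicate 1 (-0.62). Over both steps Pdgfrb fell by 0.93 (SE 0.07, adjusted p = 4.8e-05), or 1.9-fold.

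Of the 4 ligands and PDGFRA, 2 were called lower over both steps (background 3.4%). Pdgfd, a ligand that also acts on PDGFRB, fell by 0.66 (SE 0.08) at the trypsin step and by 0.70 (SE 0.08) at the sorter step. Without trypsinized replicate 1 its change at the trypsin step was -0.57, under the minimum fold. The ligand Pdgfb, made by endothelium, had a log2 change of -0.36 over both steps (adjusted p = 0.000813), Pdgfa one of -0.49 (adjusted p = 0.000189) and Pdgfc one of -0.20 (adjusted p = 0.00509). Pdgfra, the receptor of fibroblasts, fell by 0.61 (SE 0.11, adjusted p = 0.00345), close to the minimum fold. The call was lost without untrypsinized replicate 1 (-0.56), untrypsinized replicate 3 (-0.56) or mock sorted replicate 2 (-0.54).

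MCAM (CD146), an adhesion molecule of pericytes, smooth muscle and endothelium, changed by about as much as Pdgfrb. Mcam (array row 10584674) read 11.48, 11.61 and 11.65 in untrypsinized arrays, 11.13, 11.20 and 11.15 in trypsinized arrays, and 10.63, 10.69 and 10.62 in mock sorted arrays. Arrays of a group are tightly grouped after both treatments. The log2 changes at the steps were -0.42 (SE 0.05, adjusted p = 0.00129) and -0.51 (SE 0.05, adjusted p = 0.000642), under the minimum fold, and over both Mcam fell by 0.93 (SE 0.05, adjusted p = 5.53e-06).

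CSPG4 (NG2), the pericyte proteoglycan, had the largest share of its change, 66.5%, at the trypsin step. Cspg4 (array row 10585588) read 8.83, 8.87 and 8.90 in untrypsinized arrays, 8.50, 8.54 and 8.55 in trypsinized arrays, and 8.24, 8.51 and 8.33 in mock sorted arrays. Trypsinized arrays are clear of untrypsinized ones, while mock sorted replicate 2 falls among the trypsinized arrays. The log2 change was -0.33 (SE 0.06, adjusted p = 0.00871) after trypsin and -0.17 (SE 0.06, adjusted p = 0.227) after the sorter pass. The change over both steps was -0.50 (SE 0.06, adjusted p = 0.000638), under the minimum fold, and Cspg4 was called with arrays set to a common median (-0.65) and after quantile normalization (-0.63). Its levels lay near the mark of dim signal, where fold changes are understated.

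NOTCH3 is the Notch receptor of mural cells, and its gene changed least. Notch3 (array row 10449775) read 10.80, 10.81 and 10.93 in untrypsinized arrays, 10.78, 10.69 and 10.71 in trypsinized arrays, and 10.56, 10.54 and 10.49 in mock sorted arrays. The groups are separate by narrow gaps. Its log2 changes were -0.12 (SE 0.05, adjusted p = 0.099) and -0.20 (SE 0.05, adjusted p = 0.0594) at the steps. Over both it was -0.32 (SE 0.05, adjusted p = 0.00142), with a 95% interval of -0.43 to -0.21 that lies within 1.5-fold. Mammary epithelial cells also express Notch3, and their part in this level was not tested.

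Among 13 Notch partners (ligands, other receptors, RBPJ and targets), 5 were called lower over both steps (background 3.4%). Their median log2 change was -0.52, against 0.05 over all genes. Hey2, a Notch target of smooth muscle and arterial endothelium, fell by 1.28 (SE 0.08, adjusted p = 9.91e-06), after a fall of 0.82 at the trypsin step. Its mock sorted arrays, 8.19 to 8.38, lay near the mark of dim signal, where fold changes are understated. The ligand genes Jag2 and Dll1 fell by 0.59 and 0.60, each close to the minimum fold, and without mock sorted replicate 1 both were under it (-0.58 and -0.55). Hes1, a target active in many cell types, had a log2 change of 0.55 (adjusted p = 5.41e-05), under the minimum fold. The other receptors had changes of -0.52 for Notch4, an endothelial gene, 0.12 for Notch1 and 0.42 for Notch2, and Notch1 was at -0.03 with arrays set to a common median.

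**Figure D3:**
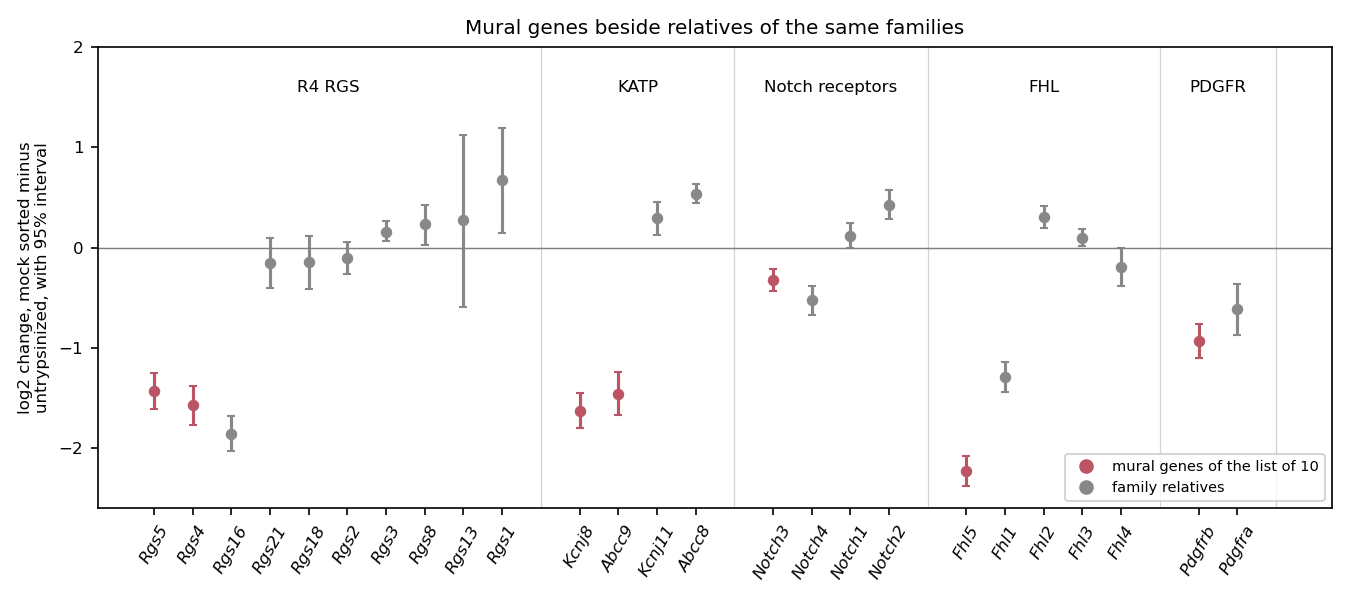
Log2 change from untrypsinized to mock sorted cells, with 95% intervals from limma (n = 3 arrays per group), for the mural genes and their relatives. Kcnj8 and Abcc9 lie at -1.63 and -1.46 while Kcnj11 and Abcc8 lie above 0, and of the R4 RGS relatives Rgs16 lies at -1.86.

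By size of the change over both steps the genes fell into a loose order. Fhl5 stood first. Kcnj8, Rgs4, Des, Abcc9 and Rgs5 followed at -1.63 to -1.43 with overlapping 95% intervals, so their order is not resolved. Mcam and Pdgfrb were both at -0.93, with intervals above those 5. Cspg4 at -0.50 and Notch3 at -0.32 came last, with intervals that overlap each other and lie above all the rest.

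Whether the sorter step exceeded the trypsin step was tested as a contrast of its own. The estimate was below 0, a larger fall at the sorter step, for 9 of 10 genes, but 0 of 10 passed at an adjusted p of 0.05 with no minimum fold (background 0.115% lower), and 4 did at an unadjusted limma p, where 16.4% of all genes did in either direction. The largest difference was for Rgs5, -0.81 (SE 0.14, adjusted p = 0.0821), followed by Fhl5 at -0.53 (SE 0.11, adjusted p = 0.104). Both passed when dim genes were left out (adjusted p = 0.0262 and 0.0392) and with a robust intensity trend (adjusted p = 0.0148 and 0.0202). For Mcam the 95% interval of the difference was -0.29 to 0.11 and for Notch3 -0.27 to 0.11. Cspg4 had the only estimate above 0, at 0.17 (interval -0.09 to 0.42).

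A longer list of 24 mural genes that shares none of the 10 had 23 measured members. Over both steps 12 were called lower (background 3.4%) and 0 higher, with a median log2 change of -0.66. After trypsin 4 were called lower (background 0.933%) and after the sorter pass 7 (background 1.17%), with medians of -0.35 and -0.41. Gucy1a1 and Gucy1b1, the subunits of the nitric oxide receptor of smooth muscle and pericytes, fell by 1.84 (SE 0.07) and 1.59 (SE 0.07) over both steps. Art3, an ectoenzyme family member, had a log2 change of -1.92 (SE 0.08, adjusted p = 2.71e-06), but its trypsinized mean of 7.86 and mock sorted mean of 7.09 both lie below the mark of dim signal, so the size of its change is uncertain. Rasl12, a small GTPase-like gene, fell by 1.10 (SE 0.05). Mock sorted arrays of Rasl12 (8.25 to 8.32) and Gucy1b1 (8.24 to 8.47) lay near the mark of dim signal. Gucy1a1, Gucy1b1, Art3 and Rasl12 had the smallest p-values of the list, and 11 of the 23 were not called over both steps. The following were named after their values were seen. Among pericyte genes not called, the log2 change was -0.51 for Ndufa4l2 (adjusted p = 0.0012), -0.32 for Cox4i2 (adjusted p = 0.0117), -0.29 for Cd248 (adjusted p = 0.00331) and -0.44 for Higd1b (adjusted p = 0.0265), which was dim on every array. The transcription factor gene Foxf2, dim on every array as well, was higher by 0.36 (adjusted p = 0.00125), under the minimum fold. Foxs1 was at 0.13 (adjusted p = 0.192) and Anpep at 0.07 (adjusted p = 0.181), and with arrays set to a common median they were at -0.02 and -0.08.

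The contractile genes of smooth muscle, which myoepithelial cells also use, differed in the size of their change. Of 16, 7 were called lower over both steps (background 3.4%), with a median log2 change of -0.51. There were 5 called lower after trypsin (background 0.933%) and 2 after the sorter pass (background 1.17%). With an adjusted p and no minimum fold, 15 of 16 were lower over both steps (background 18%). The exception was Smtn, at 0.06 (adjusted p = 0.189). The calcium store protein gene Casq2 had a log2 change of -1.36 (SE 0.07, adjusted p = 4.59e-06), with mock sorted arrays of 7.90 to 8.03 that all lie below the mark of dim signal. Its call at the trypsin step was lost without untrypsinized replicate 3 (-0.54) or trypsinized replicate 3 (-0.56). Over both steps Synpo2 fell by 1.33 (SE 0.07), Ppp1r14a, an inhibitor of myosin phosphatase, by 1.28 (SE 0.07) and Lmod1, an actin nucleator, by 0.77 (SE 0.05). Acta2, smooth muscle actin, had a log2 change of -0.09 (SE 0.03, adjusted p = 0.0386), and was named after its value was seen.

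Other cell types changed alongside. The mural genes had intensity sums of 19493 to 21957 in untrypsinized, 15057 to 15446 in trypsinized and 8637 to 9430 in mock sorted arrays. The trypsinized and mock sorted means of these 10 genes were thus 74% and 43.9% of the start. The 23 other mural genes fell less, to 83.3% and 67.4%, and the 16 contractile genes to 87.7% and 78.6%. The level of a mural sum therefore depends on the list, and bright rows weigh most in it. Endothelial markers were also lower at each step, with sums from 46810 to 53550 at the start, through 36970 to 37392, to 17735 to 20999, or 73.7% and 38.5%. By array the mock sorted sums were 41.7%, 35.2% and 38.5% for endothelium and 45.8%, 41.9% and 44.2% for the mural genes, and the difference between the lists was not tested. Of 17 endothelial markers, 5 were called lower after trypsin (background 0.933%), or 2 without untrypsinized replicate 3 and 8 without untrypsinized replicate 1. After the sorter pass 16 were called lower (background 1.17%), and over both steps 17 (background 3.4%).

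Fibroblast markers, 12 in number, had sums of 40237 to 45247, 35286 to 38593 and 32830 to 35440, or 85.5% and 79.9% of the start. Called lower after trypsin, after the sorter and over both were 1, 0 and 2 (backgrounds 0.933%, 1.17% and 3.4%). The same backgrounds apply to the Schwann cell and adipocyte counts. With an adjusted p and no minimum fold, 6, 0 and 11 fibroblast markers were lower (backgrounds 11.5%, 4.2% and 18%). The 6 Schwann cell markers measured stood at 71.7% after trypsin and 57.4% after the sorter pass, with 3, 3 and 4 called lower. The 10 adipocyte markers measured stood at 79.9% and 49.9% of their untrypsinized sum, with 2, 3 and 4 called lower. Their median log2 change over both steps was -0.27, and 6 of the 10 were not called. Those called included Fabp4, also a gene of capillary endothelium, with means of 12.63 in untrypsinized and 11.23 in mock sorted cells. Car3 and Aqp7 were called over both steps in all 9 fits that left out 1 array. Their log2 changes there were -2.35 to -2.08 and -2.29 to -2.05. Adipoq, named although it was not among the genes called, changed by -0.02 to 0.06 over both steps when each array was left out. Myoepithelial markers, 10 in number, ended at 94% and luminal markers, 12 in number, at 108.8% of their untrypsinized sums, with 0 of either called. With an unadjusted limma p and the same minimum fold the count was 0 as well. With an adjusted p and no minimum fold, over both steps 6 luminal markers were higher and 1 lower, and 1 myoepithelial marker was higher and 3 lower. Median intensity over all rows was 344.9 to 375.5 in untrypsinized and 400.3 to 402.9 in mock sorted arrays. A common median moved the median over all genes from 0.05 to -0.09 over both steps, against a luminal median log2 change of 0.11. The direction of such small luminal changes may thus depend on scaling. The part of any of these cell types in the mural values was not tested.

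**Figure D4:**
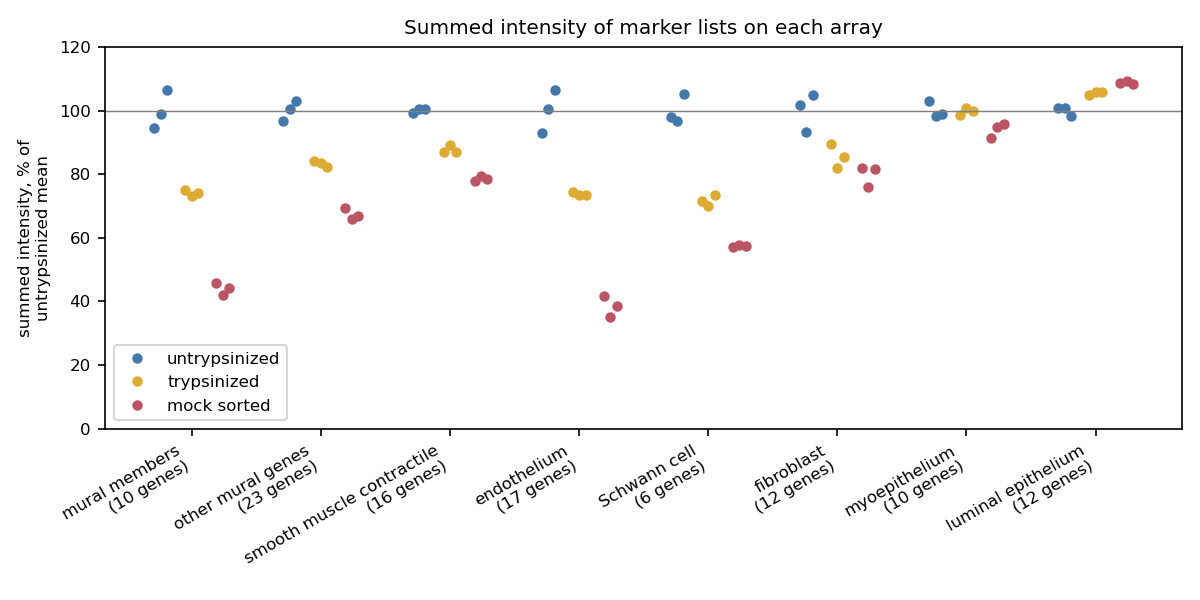
Summed intensity of each marker list on every array, as percent of that list's untrypsinized mean, with 1 point per array. Arrays end at 41.9% to 45.8% for the 10 mural genes and at 65.8% to 69.5% for the other mural genes. Endothelial arrays end at 35.2% to 41.7% and luminal arrays at 108.5% to 109.2%.

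The 12 lymphocyte markers measured went the other way. Their summed intensity was 4467 to 4603 in untrypsinized, 7613 to 19062 in trypsinized and 6653 to 16666 in mock sorted arrays, so the treated means were 253.2% and 223.5% of the start. By array the sums were 419.6%, 172.4% and 167.6% after trypsin and 366.9%, 157.2% and 146.5% after the mock sort, all above the untrypsinized arrays, with replicate 1 apart in both groups. After trypsin 2 of the 12 were called higher (background 0.532%), and over both steps 3 (background 1.08%). These calls depended on single arrays. Of the 9 fits that left out 1 array, Lat, the marker called most often, was called in 5 at the trypsin step. Over both steps it was called in 4. The mural sums were 75%, 73.1% and 74.1% of the start in trypsinized and 45.8%, 41.9% and 44.2% in mock sorted replicates 1, 2 and 3. Without trypsinized replicate 1 the counts called were 3, 6 and 8, and without mock sorted replicate 1 they were 3, 7 and 8.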

How the data were processed

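The authors deposited 35512 rows of linear intensity. Per the submitters' processing notes limma was used, while background correction, probe summary and scaling are not stated there, in the labels or in the header. Rows were named through a platform annotation table, which can be old: 21789 had 1 symbol, 1621 several and 12102 none listed. For 21698 rows the current symbol was taken from the RefSeq table of GRCm38.p6 through the gene number. The row with the highest mean stood for a gene. Values were tested as log2(intensity + 1), which understates changes of dim genes.

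All 9 arrays and 19938 genes entered 1 fit of group means in limma 3.58.1 (R 4.3.3), using eBayes and p-values adjusted by Benjamini-Hochberg. No genes were filtered. The submitters' design text gives the thresholds without saying whether p was adjusted. The model was tested on simulated data. The number of arrays limits the precision.

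The mural genes, the lists and the comparisons were chosen with earlier results of these data known. Named partner genes were up to 4 per list with the smallest p, and all of lists of 5 or fewer. The remaining Notch receptors were named to complete a family, after values were seen. Alternatives changed the threshold, scaling, dim-gene filter, pseudocount, row choice, variance model, array weights, arrays in the fit, replicate block and each array.

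The groups share replicate numbers 1 to 3. Deviations from group means correlated at 0.53, 0.29 and 0.29 between same-numbered trypsinized and mock sorted arrays. Between differently numbered arrays of these groups they correlated at -0.36 to 0.16. Any pairing is read from these values, not the labels, and the main fit did not use it. A replicate block was run only as an alternative. Untrypsinized arrays correlated with their numbers at -0.04 to 0.11 (trypsinized) and 0.06 to 0.32 (mock sorted).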

Additional observations from a re-analysis of the deposited data

How the results depend on the processing

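The counts of mural genes called lower, 3, 6 and 8 for trypsin, sorter and both steps, were 3, 6 and 8 with a replicate block, array weights, a pseudocount of 16, the mean of all rows, a robust trend, dim genes left out, 6 arrays, and an unadjusted p. Scaling moved them: with arrays set to a common median the trypsin count was 5 and the count over both steps 9, and after quantile normalization 4 and 9. With no minimum fold the trypsin count was 9. Leaving out dim genes dropped the 40% of genes with the lowest mean level, Cspg4 among them, so Cspg4 was not tested there. Leaving out each array gave 2 to 4, 6 to 7 and 8 to 8. For the difference of the steps the count of 0 became 2 with dim genes left out and 2 with a robust trend, and stayed at 0 to 0 when arrays were left out. No mural gene's called change reversed under any of these settings. All 199 alternative values for each of the 3 comparisons were below 0. A common median moved the median over all genes from 0.04 to -0.09 at the trypsin step, and the mural median stayed 0.50 below it. Over all genes, lower and higher calls were 186 and 106 at the trypsin step, 279 and 57 after quantile normalization and 376 and 55 with a common median. Over both steps they were 677 and 215, 861 and 116, and 1028 and 92. For the difference of the steps they were 23 and 2, 18 and 6, and 3 and 1. The cause of these shifts was not tested.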

Other observations

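Across the 9 arrays the 10 mural genes ran closely together, with Pearson correlations of 0.79 to 0.99 over their 45 pairs, median 0.97. All points share the group steps, so this describes the common descent through the procedure. With group means taken out, the median over pairs was 0.43, and Des with Pdgfrb was highest at 0.92. The 9 pairs with Cspg4 had a median of -0.29, against 0.51 for the other 36. Mock sorted replicate 2 was the lowest mock sorted array for Rgs5 (10.63) and the highest for Cspg4 (8.51).

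The genes outside the list whose profile was most like the mean of the 10, among 338 genes at least 1 log2 unit apart between untrypsinized and mock sorted cells, were Ebf3 and Rgs16 (Pearson r of 0.999 over 9 arrays), then Timp4, Pde8a and Tmem88 (0.998). Ebf3, a transcription factor, had mean levels of 10.01, 9.49 and 8.71 in the 3 groups, and Timp4, an inhibitor of metalloproteinases, 9.85, 9.01 and 7.83. For Rgs5 alone, among 343 candidates, they were Fabp4 and Emcn (0.998) and Cd36 (0.997), which are genes of capillary endothelium, and Fabp4 and Cd36 also of fat cells. Fabp4 had mean levels of 12.63, 12.33 and 11.23, and Emcn 12.47, 12.16 and 11.21.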
